A study of Mus musculus with 2 samples.

Results

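The promoters and gene bodies of the mouse zinc finger genes Zfp600 to Zfp999 were examined in live-cell ATAC-seq of cells labelled neural progenitors (NPs) and sorted for an Olig2 reporter. Members were the protein-coding genes in the GENCODE annotation of mm10 that are named Zfp and a bare number within this range, and 171 of 21938 protein-coding genes qualified. Their promoters were read from 142 of 119502 intervals, those that overlapped a transcription start site (TSS) of any annotated transcript of a member, and a member with no such interval had a value of 0. A further 184 intervals lay inside member genes away from their TSSs. The 2 libraries, replicates of 1 group, came from the Olig2-mKate2 mouse embryonic stem (ES) cell line, a reporter line whose red fluorescent protein mKate2 marks Olig2 expression. Sorted Olig2-expressing cells were used, differentiated to day 5 with 100 nM RA (retinoic acid) and 100 nM SAG, a Smoothened agonist that activates the Shh pathway, and 50000 cells entered each transposition. By the study's account the sort also takes in motor neurons that have just formed and some cells positive for both OLIG2 and NKX2.2. The ES cells had been kept on fibroblast feeders, which were removed by plating before differentiation. Both libraries shared all of these conditions, so no treatment or cell type was compared. No test between groups of genes was run, and differences between them are descriptions.

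Most genes of this number range encode C2H2 zinc finger proteins, in which repeated finger modules read DNA sequence. Many carry a KRAB domain, which recruits the corepressor TRIM28 and through it the histone methyltransferase SETDB1, and such proteins are best known for silencing transposable elements by H3K9 trimethylation. KRAB zinc finger genes multiply by tandem duplication, so they lie in clusters of close relatives on a few chromosomes. ATAC-seq reports the accessibility of their promoters and not the level of their transcripts.

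The libraries held 31876165 and 31672240 counts. The Wilson intervals given with shares below rest on counts of genes and hold no error of the read counts. They treat genes as independent draws, although members in clusters are close relatives, so they can be too narrow. Between 0.510% and 0.518% of the counts fell in the members' TSS intervals, whose median raw count was 1016 in replicate 1 and 1018 in replicate 2. Among markers of the labelled cell type, 6 of 6 neural progenitor genes (Sox1, Sox2, Pax6, Nes, Olig2 and Nkx6-1) had a TSS interval, with densities from 577 to 1498 normalised counts per kb. Of 4 pluripotency genes, Pou5f1 and Nanog had none and Zfp42 and Esrrb were at 237 and 282. Of 4 fibroblast genes 3 had one, between 123 and 472, and of 4 motor neuron genes 3 had one, between 300 and 557, and the part of motor neurons in the members' values was not tested.

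The sequence directly before the gene start is shown for members that represent 3 kinds of promoter. Each run has 100 bases, ends at the base before the 5′ end of the gene record and is read on the gene's strand of GRCm38/mm10. Capitals mark the dinucleotide CG and the letters CCAAT, or ATTGG where they lie on the other strand. The first 3 are strongly accessible promoters, of Zfp868 (chr8:69625549-69625648, minus strand), Zfp963 (chr8:69749971-69750070, minus strand) and Zfp687 (chr3:95015449-95015548, minus strand).
Zfp868: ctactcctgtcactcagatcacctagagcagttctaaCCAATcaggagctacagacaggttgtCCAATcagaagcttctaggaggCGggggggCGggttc
Zfp963: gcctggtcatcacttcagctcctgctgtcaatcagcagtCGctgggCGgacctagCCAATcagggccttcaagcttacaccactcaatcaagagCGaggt
Zfp687: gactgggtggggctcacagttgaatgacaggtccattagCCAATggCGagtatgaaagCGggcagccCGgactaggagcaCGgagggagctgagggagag

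The next 4 belong to members without a TSS interval whose start is repeated elsewhere in the genome: Zfp967 (chr2:176520956-176521055, plus strand), Zfp965 (chr2:175469885-175469984, plus strand), Zfp978 (chr4:147361203-147361302, plus strand) and Zfp600 (chr4:146156724-146156823, plus strand). The 100 bases of Zfp967 were also those of Zfp969 (chr2:175703647-175703746, minus strand), with 0 differing bases. The run of Zfp965 was likewise that of Zfp973 (chr2:176670422-176670521, plus strand), and the run of Zfp978 that of Zfp979 (chr4:147642514-147642613, minus strand). Zfp600 and Zfp978 differed by 9 edits when aligned, an identity of 91%.
Zfp967: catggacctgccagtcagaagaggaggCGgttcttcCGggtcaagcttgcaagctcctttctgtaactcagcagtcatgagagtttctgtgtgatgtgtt
Zfp965: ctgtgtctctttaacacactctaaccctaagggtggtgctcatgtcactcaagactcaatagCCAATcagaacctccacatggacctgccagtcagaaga
Zfp978: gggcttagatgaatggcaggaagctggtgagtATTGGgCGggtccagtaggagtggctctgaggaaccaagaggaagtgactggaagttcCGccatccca
Zfp600: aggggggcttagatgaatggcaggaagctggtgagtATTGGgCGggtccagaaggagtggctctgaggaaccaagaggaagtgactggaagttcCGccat

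The last pair was Zfp616 (chr11:74069855-74069954, plus strand) and Zfp735 (chr11:73688678-73688777, plus strand). They had no TSS interval although 100% and 96.8% of the 50-mers around their starts occur once in the genome. Each start also had 1 match elsewhere by BLAST, described below. Neither run holds a CG.
Zfp616: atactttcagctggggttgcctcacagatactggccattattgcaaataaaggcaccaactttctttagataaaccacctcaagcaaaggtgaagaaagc
Zfp735: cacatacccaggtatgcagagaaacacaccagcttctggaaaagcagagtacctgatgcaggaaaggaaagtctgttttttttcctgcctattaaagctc

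Most members had an interval over a TSS. The interval set was built over 5 libraries, so an interval need not have been called in the 2 used here. An interval overlapped a TSS of 140 of the 171 members (81.9%, 95% Wilson interval 75.4 to 86.9), beside 68.1% of all protein-coding genes and 187 of 194 genes named Zfp1 to Zfp599 (96.4%, 92.7 to 98.2). Allowing an interval within 1 kb of a TSS left the members at 140, beside 72.0% of all protein-coding genes, so none of the 31 members without an interval had one within that distance. The distance from their TSSs to the nearest interval ran from 1046 bp at Zfp992 to 754779 bp at Zfp966, with a median of 29412 bp. By number, TSS intervals were present at 38 of 43 members from Zfp600 to Zfp699, 36 of 38 of the 700s, 25 of 27 of the 800s and 41 of 63 of the 900s. No count exists outside the intervals, so no limit on accessibility can be given for a member without one.

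Promoter density, the normalised count per kb of a gene's TSS intervals, had a median over all members of 685 in replicate 1 and 661 in replicate 2 (673 ± 17.3, SD, n = 2). The same median over all protein-coding genes was 491 ± 8.19 (SD, n = 2), and over Zfp1 to Zfp599 849 ± 34.1. With genes lacking counts left out, the 140 members had a median of 818 in replicate 1 and 786 in replicate 2, and all protein-coding genes 841 and 815. The members were thus slightly lower in both libraries. Densities above 1000 were found at 53 members and above 2000 at 10. The members' TSS intervals were short, with a median of 1111 bp for the summed length per member against 1317 bp over all genes with counts.

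The 10 highest promoters were those of Zfp868, Zfp963, Zfp866, Zfp687, Zfp637, Zfp787, Zfp961, Zfp788, Zfp691 and Zfp865, at 2919 down to 2003 normalised counts per kb. Zfp868 stood at 2930 in replicate 1 and 2908 in replicate 2, at the 99.6th percentile of protein-coding genes. Zfp963 had 2641 and 2651, Zfp866 2375 and 2367, and Zfp961 2050 and 2120. All 4 lie on chromosome 8 and all 4 have a KRAB match. The value of Zfp866 pools an interval of 4471 ± 111 at 69774554 to 69775111 with another of 1302 ± 65.9 at 69790791 to 69791886. It shares TSS intervals with Gm20422 and Atp13a1, whose gene starts lie 16292 and 15 bp from its own. Zfp687, a C2H2 protein that partners the chromatin reader ZMYND8, was the highest member without a KRAB match at 2374 and 2353. Zfp637, Zfp787, Zfp691 and Zfp865 also lacked a KRAB match, and Zfp788 on chromosome 7, with 23 fingers, had one and stood at 2044 and 2045. In each of the 10 the SD between libraries was at most 88.3.

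Chromosome 8 was high for other genes as well. Its other protein-coding genes with counts had a median density of 1187, against 760 to 951 on the other autosomes, and the 15 members with counts there had a median of 1236. Whether these values share a source with the high densities of Zfp868 and its neighbours was not tested. On chromosome 7, which held the most members, 32 of 35 had a TSS interval and those with counts had a median of 893, beside 805 for other genes of that chromosome.

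**Figure D1:**
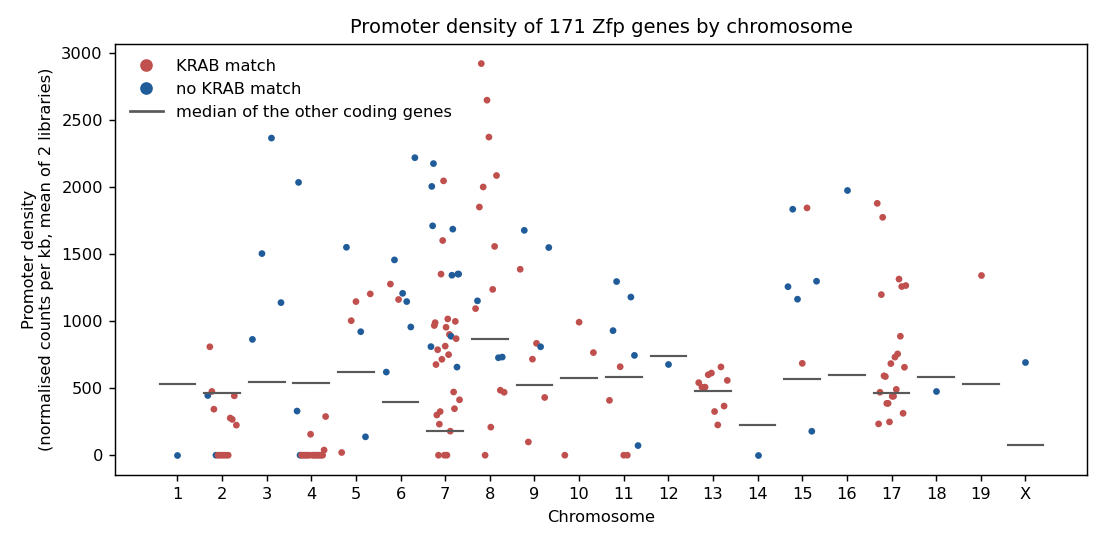
Promoter density of each member (vertical axis, normalised counts per kb, mean of 2 libraries) by chromosome (horizontal axis), with members in chromosomal order within a column, coloured by KRAB match, and a line at the median of the other protein-coding genes. Members at 0 have no TSS interval. They pile up on chromosomes 4 and 2, where 15 and 7 members were without one, and the highest values lie on chromosome 8.

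Members with individually known roles were spread over the range. Zfp932, a KRAB protein that represses endogenous retroviruses, had 985 and 1020 normalised counts per kb. Zfp809, which recognises the proline primer binding site of murine leukaemia viruses and silences their proviruses, had 736 and 696. Zfp819, a KRAB protein of pluripotent cells that binds TRIM28, was low at 177 and 181. The 3 values differed by more than their spreads between libraries, with SDs of 24.9 for Zfp932 and 3.19 for Zfp819.

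Among members without a KRAB match, Zfp644, which brings the methyltransferases G9a and GLP to chromatin, stood at 1550 ± 19.8 (SD, n = 2). Zfp746 (PARIS, a Parkin substrate that represses Ppargc1a) had 1206 ± 76.1, and it is described elsewhere as a KRAB protein although the search pattern did not match it. Zfp830, a splicing-associated factor, had 1179 ± 24.4, and Zfp703, a corepressor of the NET family, had 1150 ± 36.6. Zfp703 and Zfp704, the latter at 863 ± 37.8, had TSS intervals of 4055 and 2695 bp, long beside the member median. Zfp638, which silences unintegrated retroviral DNA, had 956 ± 18.6. Zfp609, a partner of the cohesin loader NIPBL, had 808 ± 33.2 and its paralogue Zfp608 476 ± 31.4. Zfp652, Zfp827, Zfp711 and Zfp800 lay between 620 and 744. Zfp750, a p63 target that drives epidermal differentiation, had 71.8 in replicate 1 and 71.7 in replicate 2. Zfp831 had no TSS interval, and the nearest was 21846 bp away.

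The 10 lowest promoters among members with counts ran from 20.0 to 224 and were those of Zfp951, Zfp984, Zfp750, Zfp872, Zfp853, Zfp981, Zfp641, Zfp819, Zfp709 and Zfp931. Several rested on few fragments. Zfp951 had 11 and 13 raw counts, Zfp984 13 and 17, Zfp981 25 and 40, and Zfp872 27 and 16. Zfp981 and Zfp872 lay in intervals of 208 and 218 bp, so their densities of 156 ± 50.9 and 98.6 ± 35.7 were imprecise. More counts lay behind Zfp641 at 178 ± 5.61 (194 and 203) and Zfp853 at 137 ± 1.60 (229 and 233).

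The libraries matched closely at the members' TSS intervals. Across the 142 intervals the R2 of log2(normalised count + 1) was 0.994, as a description across intervals, beside 0.992 across all 16234 TSS intervals. Where the mean of the normalised counts exceeded 100, in 137 intervals, the SD of the log2 ratio was 0.08. An exact two-sided binomial test, adjusted by Benjamini-Hochberg over all intervals, called 0 member TSS intervals different between the libraries at 0.01, beside 0% of all intervals, and the lowest adjusted p at a member was 0.202. An unadjusted p under 0.05 was found at 15 of the 142 (10.6%), beside 12.3% of all TSS intervals. The largest differences in well-covered intervals were at Zfp825 (513 and 602 normalised counts per kb, log2 ratio 0.23), Zfp850 (349 and 301, -0.21), Zfp763 (704 and 608, -0.21) and the interval shared by Zfp758 and Zfp944 (470 and 408, -0.20). Their adjusted p values ran from 0.410 at Zfp763 to 0.546 at the shared interval.

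**Figure D2:**
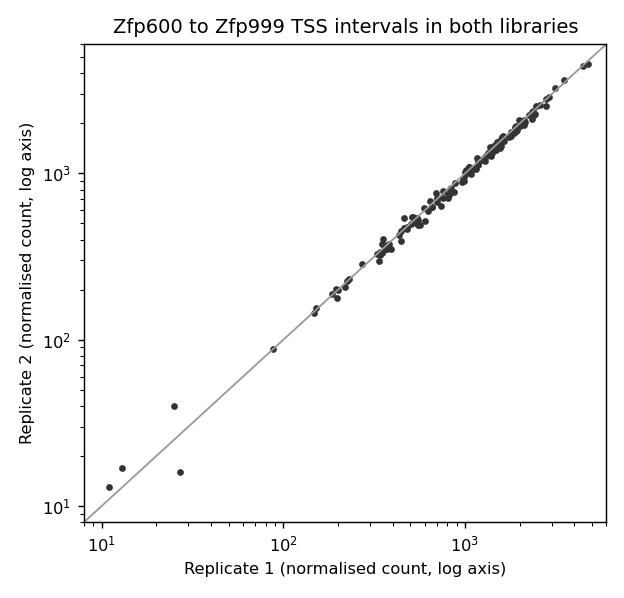
Normalised counts of the 142 member TSS intervals in replicate 1 (horizontal, log axis) and replicate 2 (vertical, log axis), 1 point per interval, with the line of equality. Points follow the line except for 4 intervals with fewer than 50 counts in each library, those of Zfp951, Zfp984, Zfp981 and Zfp872.

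Members with a KRAB match had lower median promoter densities than those without. A KRAB match was found in the translated coding sequence of 121 members, of which 94 had a TSS interval (77.7%, 69.5 to 84.2), and 46 of the 50 others had one (92.0%, 81.2 to 96.8). The median density was 494 and 483 normalised counts per kb in the KRAB group and 1128 and 1134 in the rest, a ratio of 0.432 ± 0.00834 (SD, n = 2). With members lacking counts left out, the medians were 681 ± 13.3 and 1156 ± 8.36. The KRAB group thus lay below the rest by more than the spread between libraries in each reading, although the values of single members overlapped widely, from 20.0 to 2919 and from 71.8 to 2364. Of the KRAB group 59 and of the rest 40 lay above the median of all protein-coding genes. In Zfp1 to Zfp599 the same classes had medians of 693 ± 7.10 and 1007 ± 33.5, with a TSS interval at 94 of 98 and 93 of 96 genes. With members under 50% unique sequence at the start left out, a condition described below, 82 of 90 KRAB members (91.1%) and 46 of 50 others (92.0%) had a TSS interval, so the shares were then alike. The medians were 693 ± 8.67 and 1131 ± 4.10.

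**Figure D3:**
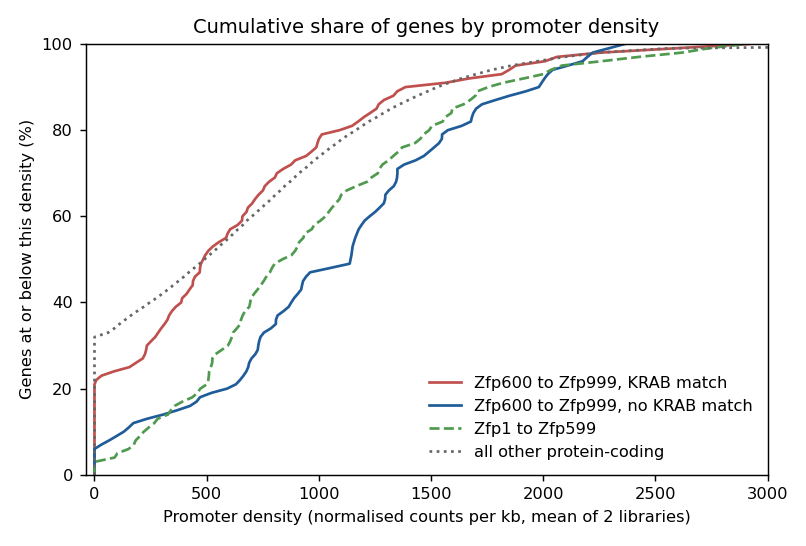
Cumulative percentage of genes (vertical axis) at or below each promoter density (horizontal axis, normalised counts per kb, mean of 2 libraries) for members with and without a KRAB match, Zfp1 to Zfp599 and all other protein-coding genes. The curve of the KRAB group starts with its members at 0 and runs to the left of the members without a match over nearly the whole range. The medians of the plotted values are 484 and 1141.

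By position, 101 members lay in 17 clusters, in which neighbouring members start at most 500 kb apart and there are at least 3. In 11 of the 17 every member had a TSS interval, and 23 of the 31 members without one were in clusters. The largest cluster, Zfp990 to Zfp933 at 145510759 to 147848366 on chromosome 4, had 17 members, all with a KRAB match, and a TSS interval at 3. These were Zfp933 at 293 and 283 normalised counts per kb, Zfp981 at 120 and 192, and Zfp984 at 33.3 and 43.5, all below the median of all protein-coding genes. At Zfp990, Zfp980 and Zfp986, the first in the cluster, the nearest interval was 29412 to 31468 bp from a TSS. All 5 other protein-coding genes of this region also lacked a TSS interval, and it held 27.4 intervals per Mb beside 43.8 over the chromosomes.

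The second cluster, Zfp677 to Zfp945 on chromosome 17 (21383748 to 22867134), was made up of KRAB genes as well. All 14 members had a TSS interval, with a median density of 480 ± 33.4 and values from 233 at Zfp677 to 1773 at Zfp760, and its 29.0 intervals per Mb were close to the value on chromosome 4. Zfp944 and Zfp758 shared 1 interval, as did Zfp942 and Zfp943, each pair starting 53 and 88 bp apart on opposite strands. In all, 20 of 140 members (14.3%) shared a TSS interval with another protein-coding gene, beside 18.9% of all genes with one, and for 10 of them the partner was another member.

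Clusters differed more in level than their members differed between libraries. In Zfp930 to Zfp866 on chromosome 8 (69209038 to 69791178) 5 of 6 members stood between 1850 and 2919 and Zfp869 had no interval. The cluster Zfp771 to Zfp646 on chromosome 7, with 9 of 9 accessible and 4 KRAB matches, had a median of 997 ± 17.6. Zfp628, Zfp865 and Zfp784 on chromosome 7, none with a KRAB match, had a median of 1709 ± 12.7. At the low end, Zfp970, Zfp972, Zfp971 and Zfp931 on chromosome 2 had a median of 272 ± 4.13, and Zfp968, Zfp965, Zfp969 and Zfp966 on the same chromosome had no interval at all.

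**Figure D4:**
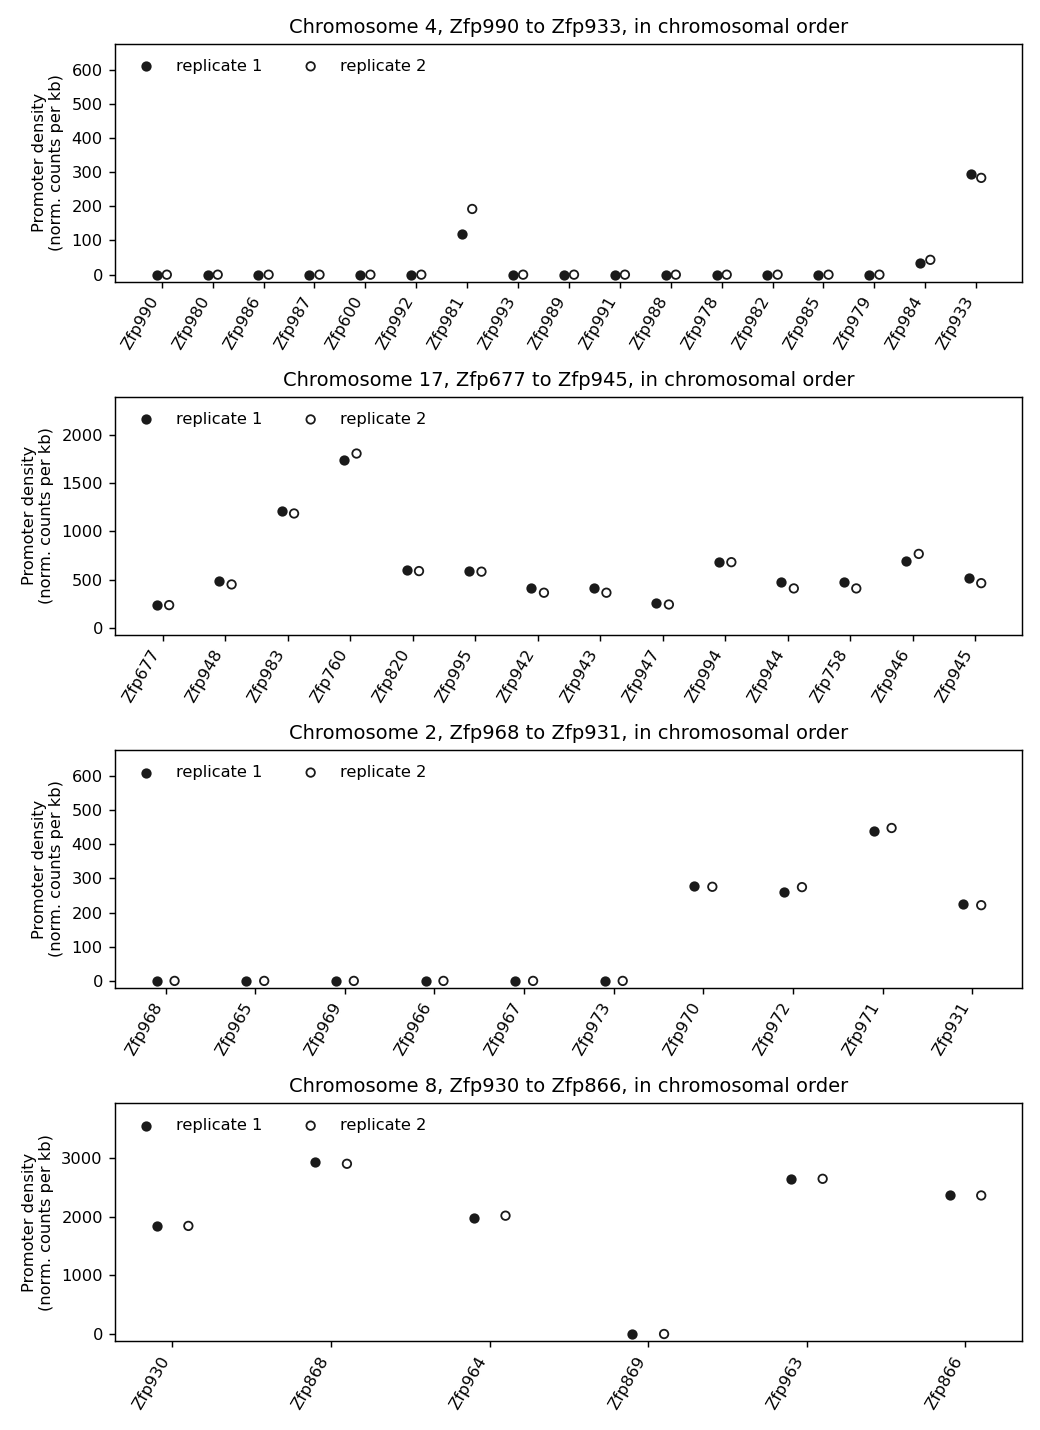
Promoter density (vertical axes, normalised counts per kb, with a different scale in each panel) of every member in replicate 1 (filled) and replicate 2 (open) over 4 regions, in chromosomal order. On chromosome 4, 14 of 17 members are at 0; on chromosome 17 all 14 have counts; on chromosome 2 the first 6 are at 0 and the last 4 lie between 222 and 447; and on chromosome 8 5 of 6 lie above 1800.

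Absence of a TSS interval went with repeated sequence at the gene start, which here and below is the 5′ end of the gene record. With that end alone 76.0% of members had a TSS interval, beside 81.9% over all transcripts, so some intervals lay at another start. In the 300 bp centred on the start, the share of 50-mers found once in the genome was under 50% at 31 members (18.1%), beside 6.32% of all protein-coding genes and 6 of 194 genes of Zfp1 to Zfp599. All 31 had a KRAB match. A TSS interval was present at 12 of these 31, at 128 of the 140 members with at least 50%, and at 110 of the 115 with 100% (95.7%, 90.2 to 98.1). Where no 50-mer was unique, 1 of 13 members had an interval, Zfp934, whose interval belongs to a second TSS shared with Zfp935. Over all protein-coding genes the shares with a TSS interval were 4.10% with no unique 50-mer and 75.5% with 100% unique. By BLAST, a match elsewhere of at least 90% identity over 100 bp was found for 56 members (32.7%, 26.2 to 40.1), for 27 of the 31 without a TSS interval and 29 of the 140 with one. The share was 9.79% in Zfp1 to Zfp599 and 12.6% in a sample of 500 other genes.

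Clusters did not follow a single order by unique sequence. In the chromosome 4 cluster 29.7% of 50-mers sampled at each kb were unique, beside 78.9% in the chromosome 17 cluster and 85.9% over the chromosomes. Yet Zfp970 to Zfp931 on chromosome 2, with a smaller unique share than the chromosome 4 cluster, had a TSS interval at 4 of 4 members, and Zfp977 to Zfp819 on chromosome 7, with 73.1%, at 6 of 8. On chromosome 2, a stretch of 1.53 Mb from 175176273 to 176707866 held no interval and 20 protein-coding genes, Zfp968, Zfp965, Zfp969, Zfp966 and Zfp967 among them. No more than 0.254% of its sampled 50-mers were unique, and 22.9% fell in assembly gaps. Start windows of Zfp968 and Zfp965 were 99.7% identical, and those of Zfp978 and Zfp979 in the chromosome 4 cluster 99.3%. How fragments that match several places were treated is not given in the sources used here, and its part in the missing intervals was not tested.

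**Figure D5:**
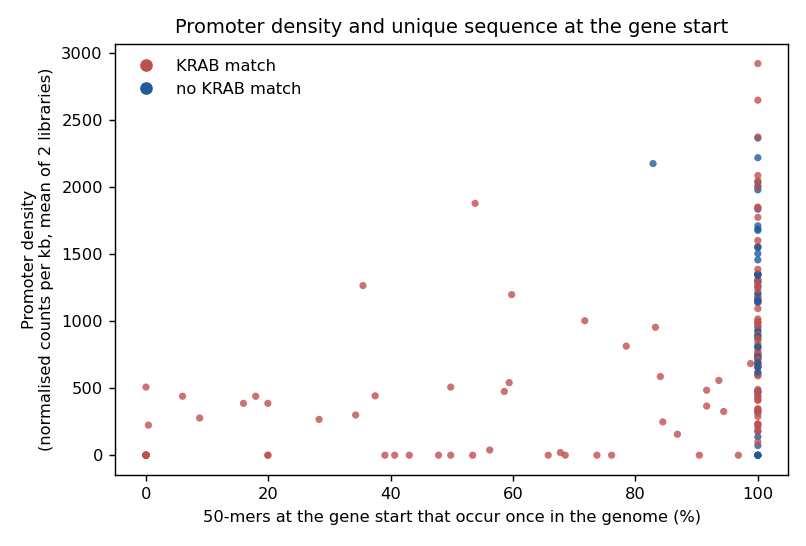
Promoter density of each member (vertical axis, normalised counts per kb, mean of 2 libraries) against the percentage of 50-mers at its gene start that occur once in the genome (horizontal axis), coloured by KRAB match. Of 13 members at 0% on the horizontal axis 12 have no TSS interval, and the members without a KRAB match lie at 100% but for Zfp787 at 82.9%.

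Repeated sequence did not go with every absence. Among members with at least 90% unique 50-mers, 7 had no TSS interval. Zfp616 and Zfp735, KRAB genes on chromosome 11 whose start sequences are shown above, had the nearest interval 9407 and 105198 bp away. Zfp988 of the chromosome 4 cluster was the other KRAB gene. By BLAST, at 90% identity over 100 bp, Zfp616 and Zfp735 each had 1 match elsewhere and Zfp988 had 17. The starts of these KRAB genes were thus repeated by that measure. Zfp648, Zfp957, Zfp683 and Zfp831, the 4 members without a KRAB match that had no TSS interval, were all 100% unique and had no such BLAST match. In the other direction, Zfp970, Zfp972, Zfp971 and Zfp931 had intervals of 1042 to 1692 bp although at most 37.5% of their 50-mers were unique.

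Members with and without a TSS interval also differed in CpG content. With at least 0.6 of the CpG expected from base composition in the 250 bases before to 50 after the start, 73 of 74 members had a TSS interval, and below it 67 of 97. The shares over all protein-coding genes were 97.9% and 44.4%. Restricted to starts with at least 50% unique 50-mers, 51 of 59 CpG-poor KRAB members had one (86.4%, 75.5 to 93.0), beside 48.5% (47.5 to 49.4) of the other protein-coding genes under the same bounds. Their median density was 653 ± 0.739 (SD, n = 2). Zfp868 and Zfp963, the highest members, were of this kind, with 0.312 and 0.375 of the expected CpG. In CpG-poor members without a KRAB match the median was 657 ± 3.55 (9 of 13 with an interval), close to that of the KRAB group. That closeness did not hold with members lacking counts left out. The CpG-poor medians were then 1297 ± 54.6 without and 696 ± 0.375 with a KRAB match. In CpG-rich members under the same bound on unique 50-mers, the medians were 786 ± 36.4 with and 1147 ± 0.0318 without a KRAB match.

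Letters of 6 promoter elements were searched on both strands of the same 300 bases. CCAAT was in 100 of 171 member promoters (58.5%, 51.0 to 65.6), beside 39.0% of all protein-coding promoters and 35.1% of those of Zfp1 to Zfp599. It was in 81 of 121 KRAB members (66.9%) and 19 of 50 others (38.0%), and in 24 of the 31 members without a TSS interval. Members with near-identical starts, such as Zfp978 and Zfp979, are each counted. TATAAA was in 6 members (3.51%, 1.62 to 7.44) beside 12.6% of all promoters. ATGGCGG, part of the YY1 site, was in 10.5% beside 4.79%, and CCGGAAG, an ETS site, in 19.3% beside 10.8%. GGGCGG, the GC box, was in 38.0% beside 43.0%, and TGCGCA, part of the NRF1 site, in 10.5% beside 9.69%. In Zfp1 to Zfp599 the shares were 9.79% for TATAAA, 7.73% (4.74 to 12.4) for ATGGCGG and 23.7% for CCGGAAG. They were 43.3% for GGGCGG and 15.5% for TGCGCA. Among KRAB members with counts, the 10 with ATGGCGG had a median density of 1396 and the 84 without 635, the widest of the 6 contrasts. The medians with and without were 716 and 491 for CCAAT, 775 and 659 for CCGGAAG, and 683 and 676 for GGGCGG. They were 933 and 668 for TGCGCA, and 771 and 679 for TATAAA, which 2 KRAB members with counts held. Over all members with counts the medians were 800 and 808 for CCAAT and 1556 and 750 for ATGGCGG. Zfp1 to Zfp599 had 872 and 893 for CCAAT. Over all protein-coding genes with counts they were 959 and 764 for CCAAT, 1022 and 813 for ATGGCGG and 1024 and 792 for CCGGAAG. There they were 925 and 679 for GGGCGG, 944 and 805 for TGCGCA, and 689 and 839 for TATAAA.

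Inside their genes, KRAB members had few intervals. Away from the TSSs an interval was found in 62 of 171 members (36.3%), beside 51.9% of all protein-coding genes, and these split into 30 of 121 KRAB members and 32 of 50 others. Per 100 kb of gene there were 1.54 internal intervals in the KRAB group, 6.04 in the rest and 5.18 over all protein-coding genes. The KRAB genes of Zfp1 to Zfp599 were similar, with an internal interval in 24 of 98 and 1.98 per 100 kb. The last coding exon, which in most C2H2 genes encodes the finger array, carried an interval away from the TSS in 19 members (11.1%), beside 8.62% of all genes. That was 6 of the KRAB members and 13 of the others.

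Internal intervals were concentrated in a few long genes. Zfp704 had 23, Zfp827 15, and Zfp608, Zfp609 and Zfp710 13 each, together 77 of the 184 (41.8%), and all 5 lack a KRAB match. The median density of all 184 internal intervals was 102 normalised counts per kb, and 4 of the 184 lay at a TSS of another protein-coding gene. The strongest was in Zfp771 at 127253788 to 127254856 on chromosome 7, with 1545 and 1538. Zfp608 followed with 1447 and 1539 in an interval of 558 bp, against 498 and 454 at its own promoter. Zfp697 and Zfp609 had internal intervals of 1141 ± 12.5 and 1023 ± 10.2, beside 1137 ± 14.3 and 808 ± 33.2 at their own promoters.

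The genes that encode the KRAB repression machinery were accessible at their promoters. All 19 cofactor genes examined had a TSS interval, with a median of 970 normalised counts per kb and a range of 384 to 2080, and 16 of 19 lay above the median of all protein-coding genes, as did 99 of the 171 members. Trim28, the corepressor that binds KRAB domains, had 1600 and 1593. Mphosph8 of the HUSH silencing complex had 2049 and 2111, and Daxx, the H3.3 chaperone, 2038 and 2014. Setdb1, the H3K9 methyltransferase, had 432 and 363, and its partner Atf7ip 373 and 394, the lowest of the list.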

How the data were processed

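Counts per interval of 2 live-cell ATAC-seq libraries were used as deposited by the authors. Per the file headers and the study's methods, the authors built 1 interval set over 5 libraries with an nf-core pipeline on mm10 and MACS peaks, and counted fragments with featureCounts 2.0.1 at an overlap fraction of 0.2. The handling of multiply mapping fragments is not given in the sources used here. The 3 columns of other series were not used. Nothing states that the replicates came from separate cultures.

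Size factors of DESeq2 1.42.0 (R 4.3.3) scaled the counts, with edgeR 4.0.16 TMM factors and total counts as alternatives. TSSs came from GENCODE release M21 (21), and 11 genes with a letter after the number were left out. A gene's density is its normalised count over its TSS intervals per kb. KRAB and C2H2 patterns were searched in translations of the mm10 coding sequences, KRAB in the first 250 residues. The KRAB pattern was widened after translations had been read, and divergent domains can be missed. Windows and 50-mers were read with pysam 0.24.0 in Python 3.11.15 and matched with BLAST+ 2.17.0. The binomial test (scipy 1.17.1) was tested on simulated data.

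Members and lists were chosen with earlier results of these data known. Named members were the 10 highest and 10 lowest densities, the 5 largest library differences, the 5 with most internal intervals, members without a TSS interval in the largest clusters and members of known role. Other genes named, and the sequences printed, were chosen after their values were seen.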

Additional observations from a re-analysis of the deposited data

How the results depend on the processing

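Of 44 alternatives over 9 results, 30 left the value within the bound set for its kind and 14 moved it further, and 7 were chosen after seeing the data. The bound was 1 SD between libraries for medians and ratios, the 95% interval for shares and R2, and a fixed fold for counts of intervals, members and calls. The share of members with a TSS interval became 91.4% with at least 50% unique 50-mers and 89.0% without the chromosome 4 cluster, both chosen after seeing the data. Under the same settings the median density over all members became 795 and 732. It was 650 from the 5′ end of the gene record, 639 without chromosome 8 and 752 counts when counted per gene and not per kb, and 661 to 685 in single libraries. Over members with counts it was 774 without chromosome 8 and 786 to 818 in single libraries. The ratio of KRAB members to the rest became 0.319 per gene, 0.469 within 1 kb of a TSS and 0.404 without chromosome 8. It became 0.613 with at least 50% unique 50-mers, 0.533 without the chromosome 4 cluster and 0.589 over members with counts, and it was 0.426 to 0.438 in single libraries. The ratio was below 1 under every one of these settings. The cause of these moves was not tested beyond the members each setting leaves out. Calls between libraries stayed at 0 with edgeR's TMM factors and with total counts. No paired analysis was possible because both libraries belong to 1 group. A gene without an interval carries no count, so depth sets no limit there.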
